A study of Mus musculus with 4 samples.

Results

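The BCL2 family decides whether a cell keeps its mitochondria intact or dies, and 10 of its genes were followed in follicular B cells with and without the transcription factor Ets1. The members are the pro-survival genes Bcl2, Bcl2l1 (Bcl-xL) and Mcl1, the effectors Bax and Bak1, and the BH3-only genes Bcl2l11 (Bim), Bbc3 (Puma), Bid, Pmaip1 (Noxa) and Bad. They were taken by gene symbol, and all 10 were present among the 23305 genes of the deposited tables. All 10 passed the filter on low values, a mean of at least 1 FPKM in either genotype, which 10949 genes passed. FPKM counts sequenced fragments scaled to transcript length and to the size of the library, so levels of different genes can be set side by side.

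RNA had been sequenced from B cells sorted from spleens of female mice, 2 libraries from WT mice (strain C57BL/6, no mutation) and 2 from Ets1-/- mice (C57BL/6 x 129Sv, homozygous for an Ets1 knockout allele). Strain and genotype therefore cannot be told apart. Mouse age was not given in the sources used here for these libraries. In both genotypes the sort took live B220+ cells with high CD23 and low CD21. Cells with CD80, IgA, IgE, IgG1, IgG2a, IgG2b or IgG3 on the surface were left out. Dying cells that had lost membrane integrity were therefore not sequenced.

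The 8 follicular B cell markers were present in every library, with a summed level of 5310 to 6687 FPKM. Markers of other cells were also found. The 10 neutrophil markers summed to 115 and 94.1 FPKM in WT replicates 1 and 2 and to 2572 and 705 FPKM in Ets1-/- replicates 1 and 2, and all 10 were higher in both Ets1-/- libraries. The 8 monocyte and macrophage markers summed to 59.2 and 26.6 FPKM in WT and to 144 and 91.7 FPKM in Ets1-/-. Of these 8, Lyz2, Emr1 and Fcgr1 were higher without overlap, Emr1 was called, and the other 5, Csf1r, Cd14, C1qa, C1qb and C1qc, overlapped. The 6 erythroid markers summed to 6.22 and 4.84 FPKM in WT and to 87.9 and 27.6 FPKM in Ets1-/-. The T cell sum overlapped between the genotypes (88.0 to 124 FPKM), but its 7 markers did not move together: Thy1, at 17.4 and 16.2 FPKM in WT and at 3.38 and 3.39 FPKM in Ets1-/-, was called lower, Lck and Cd8a were lower and Cd3g higher without overlap, and Cd3e, Cd3d and Cd4 overlapped. The sums of plasma cell markers (168 and 189 FPKM in WT, 138 and 152 FPKM in Ets1-/-), germinal centre markers (44.8 and 59.0 FPKM, 37.3 and 42.4 FPKM) and marginal zone markers (197 and 232 FPKM, 153 and 97.0 FPKM) were lower in both Ets1-/- libraries. Of the 5 plasma cell markers, Xbp1 and Irf4 were lower without overlap and Igj overlapped, while Sdc1 (7.11 and 5.13 FPKM in WT, 9.72 and 19.8 FPKM in Ets1-/-) and Prdm1 (0.580 and 0.672 FPKM, 1.68 and 1.48 FPKM) were higher without overlap. The read number behind each value was not part of the tables. From the steps between very low values, WT replicate 2 had about 1.75 times the depth of WT replicate 1, while the Ets1-/- libraries had 1.67 times (replicate 1) and 0.876 times (replicate 2) that depth. Ets1 itself was at 231 and 275 FPKM in WT and 229 and 229.8 FPKM in Ets1-/-, and since the allele is described as removing part of the exons only, this whole-gene level does not check the labels.

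Proteins of this family meet at the outer membrane of mitochondria. Bax and Bak make pores there, which release cytochrome c and start the caspases. The pro-survival proteins hold Bax, Bak and the BH3-only proteins in check, and the BH3-only proteins, switched on by damage, by loss of growth factors or by strong antigen receptor signals, set them free. In B cells, Mcl1 is needed for survival at several stages, Bcl2 supports resting mature cells, and Bim limits their number and removes self-reactive cells. The question asked here was whether transcripts of this set differ in resting Ets1-/- B cells, which are prone to become antibody-secreting cells.

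No member passed the thresholds for a change between the genotypes, which were a difference of 1 or more in either direction on the log2 scale together with a limma p, Benjamini-Hochberg adjusted over the 10949 genes, no greater than 0.05. The count was 0 of 10, against 1.70% of all genes tested. At an unadjusted p under 0.05 there was 1 member, Bcl2, against 13.3% of all genes. In 3 members both Ets1-/- values lay on one side of both WT values, Bcl2 above and Bcl2l11 and Bid below, where 41.6% of all genes tested did so (19.4% with Ets1-/- higher and 22.2% with Ets1-/- lower). The median absolute log2 fold change of the 10 members was 0.15, and that of all genes tested was 0.16. Each log2 fold change is the difference Ets1-/- minus WT in log2(FPKM + 1).

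**Figure D1:**
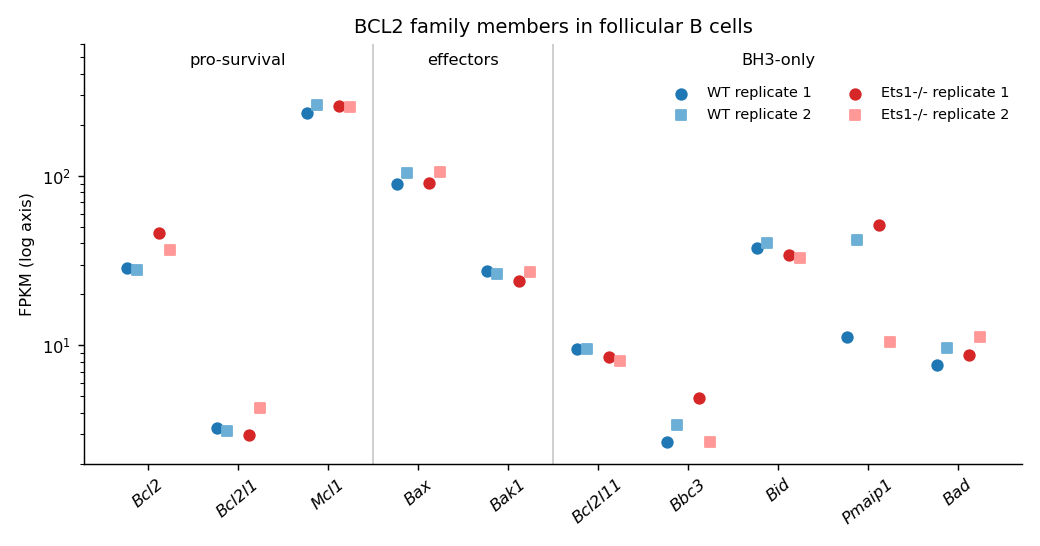
Level of each of the 10 members (FPKM, log axis) in the 2 WT libraries (blue) and the 2 Ets1-/- libraries (red), 1 point per library, grouped by role. Mcl1 lies near 250 FPKM in every library, the Ets1-/- points of Bcl2 (36.6 and 45.8 FPKM) lie above its WT points, and Pmaip1 is split within each genotype.

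In order of mean FPKM in WT cells the members ran Mcl1, Bax, Bid, Bcl2, Bak1, Pmaip1, Bcl2l11, Bad, Bcl2l1 and Bbc3. Neighbours in this order whose replicate values overlapped, and which are therefore not ranked against each other, were Bak1 with Pmaip1, Bcl2l11 with Bad, and Bcl2l1 with Bbc3. In Ets1-/- cells the order was Mcl1, Bax, Bcl2, Bid, Pmaip1, Bak1, Bad, Bcl2l11, Bbc3 and Bcl2l1, and overlap was found for Bid with Pmaip1, Pmaip1 with Bak1, and Bbc3 with Bcl2l1. Pmaip1 overlapped beyond its neighbours. Its WT values (11.2 and 41.8 FPKM) also enclosed those of Bid and Bcl2. Its Ets1-/- values (10.5 and 51.1 FPKM) also enclosed those of Bcl2 and overlapped those of Bad. Pmaip1 is therefore not ranked against these members in that genotype either. Bcl2 and Bid traded places between the genotypes without overlap in either. By its mean over the 4 libraries, Mcl1 was above 96.9% of all genes tested, Bax above 92.0%, Bcl2 above 76.0% and Bcl2l1 above only 17.3%.

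Mcl1, a short-lived protein that captures Bim and Noxa and keeps Bak inactive, was the most abundant member. Its level was 236 and 263 FPKM in WT and 257 and 256 FPKM in Ets1-/- cells, so both Ets1-/- values fell between the WT values. The log2 fold change of 0.04 had a standard error of 0.16 and a 95% confidence interval from -0.37 to 0.45 (adjusted p = 0.971, limma with Benjamini-Hochberg adjustment). This interval does not reach a 2-fold change in either direction on this scale. Mcl1 lies at chr3:95462643-95467099 in mm9 (plus strand).

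Bcl2, the founding pro-survival gene, at chr1:108434755-108610851 in mm9 (minus strand), was at 28.7 and 27.9 FPKM in WT and at 45.8 and 36.6 FPKM in Ets1-/- cells. The 2 WT libraries were close to each other, and both Ets1-/- libraries were above them. The means were 28.3 ± 0.540 FPKM and 41.2 ± 6.53 FPKM (SD, n = 2 each), a ratio of 1.46. The log2 fold change was 0.52 with a standard error of 0.16 and a 95% confidence interval from 0.10 to 0.93, an unadjusted p of 0.0239 and a Benjamini-Hochberg adjusted p of 0.247 in limma, so Bcl2 did not pass. Without Ets1-/- replicate 1, the library with most neutrophil transcripts, the log2 fold change was 0.36. The part that other cells have in the level of Bcl2 was not tested, and in bulk RNA more transcript per cell cannot be told apart from more cells of a type that express it.

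Bcl2l1, which encodes Bcl-xL and is known to rise when B cells are activated, was low in these resting cells. It was at 3.25 and 3.11 FPKM in WT and at 2.96 and 4.28 FPKM in Ets1-/- cells, which enclose the WT values. The log2 fold change of 0.13 (SE 0.19) had a 95% confidence interval from -0.36 to 0.62. It lies at chr2:152593052-152657464 in mm9 (minus strand). Gene-level FPKM does not separate spliced forms, so the long pro-survival and short death-promoting forms of Bcl2l1 and Mcl1, or the forms of Bcl2l11, are counted together.

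Among the 3 pro-survival members Mcl1 made up 88.1% and 89.4% of the summed FPKM in WT and 84.1% and 86.2% in Ets1-/- cells. Bcl2 made up 10.7% and 9.5% in WT and 15.0% and 12.3% in Ets1-/- cells. The share of Mcl1 was thus lower, and that of Bcl2 higher, in both Ets1-/- libraries. The sum of the 3 genes was 268 and 294 FPKM in WT and 306 and 297 FPKM in Ets1-/- cells. These sums did not overlap, but the values of 294 and 297 FPKM lay closer together than the WT replicates did.

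The effectors differed in level but not by genotype beyond the spread of replicates. Bax, at chr7:52717065-52722268 in mm9 (minus strand), was at 89.7 and 103 FPKM in WT and at 90.3 and 105 FPKM in Ets1-/- cells. Bak1, at chr17:27156755-27165954 in mm9 (minus strand), was at 27.3 and 26.4 FPKM in WT and at 23.98 and 27.2 FPKM in Ets1-/- cells. The WT and Ets1-/- values overlapped for both genes. The log2 fold change of Bax was 0.02 (95% confidence interval from -0.41 to 0.44) and that of Bak1 was -0.07 (from -0.43 to 0.29).

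Bcl2l11, the gene of Bim, the BH3-only protein that binds every pro-survival member, was close between replicates. It was at 9.58 and 9.52 FPKM in WT and at 8.54 and 8.11 FPKM in Ets1-/- cells, and both Ets1-/- values were below both WT values. The means were 9.55 ± 0.0434 FPKM and 8.33 ± 0.306 FPKM (SD, n = 2 each), and the log2 fold change of -0.18 (SE 0.13, 95% confidence interval from -0.52 to 0.16) had a Benjamini-Hochberg adjusted p of 0.704 in limma. It lies at chr2:127951774-127988283 in mm9 (plus strand).

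Bid, which is cut by caspase 8 and links death receptors to mitochondria, was likewise a little lower in both Ets1-/- libraries. It was at 37.3 and 40.3 FPKM in WT and at 33.9 and 33.0 FPKM in Ets1-/- cells. The log2 fold change of -0.21 (SE 0.13, 95% confidence interval from -0.55 to 0.13) had a Benjamini-Hochberg adjusted p of 0.646 in limma. Bid, at chr6:120841948-120866871 in mm9 (minus strand), shares up to 628 exon bases with the family gene Bcl2l13 on the opposite strand, and whether reads were counted by strand was not given, so reads from the shared stretch cannot be assigned. Bcl2l13 was at 9.41 and 9.49 FPKM in WT and at 8.41 and 10.2 FPKM in Ets1-/- cells, which overlap.

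Bad, a BH3-only protein that is held inactive by phosphorylation when growth factors are present, was at 7.71 and 9.72 FPKM in WT and at 8.73 and 11.2 FPKM in Ets1-/- cells, with overlap. Its log2 fold change was 0.17 (SE 0.19). Bad, at chr19:7016351-7026388 in mm9 (plus strand), shares up to 517 exon bases with Gpr137 on the opposite strand, which was at 15.2 to 20.8 FPKM. For Bcl2 and Bak1 the longest shared stretches were 497 bases with D630008O14Rik and 177 bases with Ggnbp1, also on the opposite strand.

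**Figure D2:**
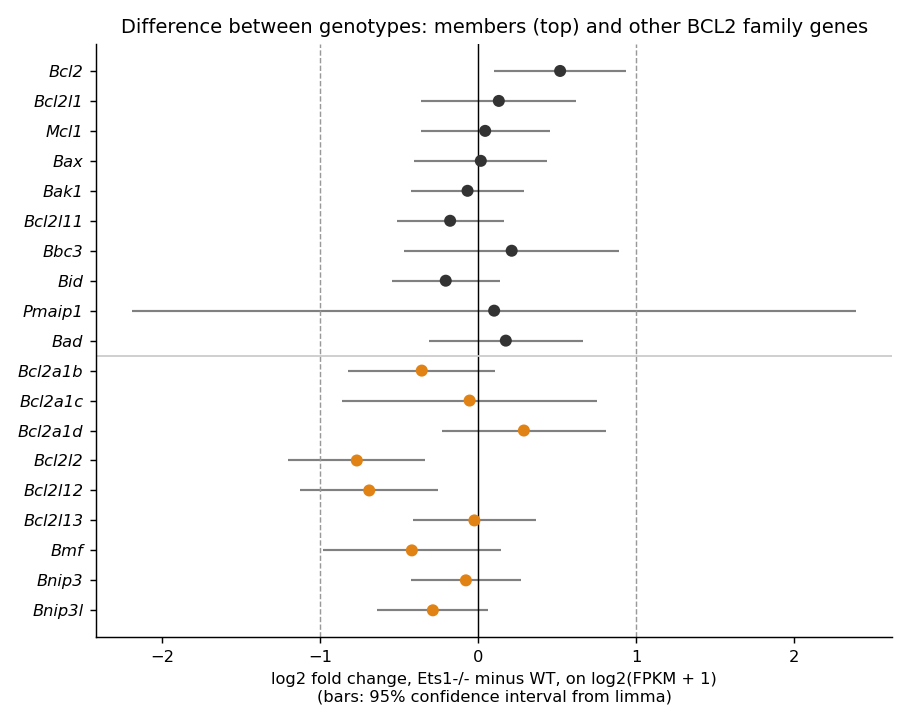
Log2 fold change, Ets1-/- minus WT on the log2(FPKM + 1) scale, with its 95% confidence interval from limma, for the 10 members (black) and the 9 tested genes of the rest of the family (orange), with dashed lines at a 2-fold change. Among the members only the interval of Bcl2 (0.10 to 0.93) leaves out 0, and that of Pmaip1 (-2.19 to 2.39) is the widest.

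Pmaip1 and Bbc3, the genes of Noxa and Puma, are known targets of p53 and of cell stress, and both varied within the genotypes more than between them. Pmaip1, at chr18:66618258-66625204 in mm9 (plus strand), was at 11.2 and 41.8 FPKM in WT replicates 1 and 2 and at 51.1 and 10.5 FPKM in Ets1-/- replicates 1 and 2. WT replicate 2 and Ets1-/- replicate 1 were high and the other two low, a 3.73-fold gap within WT and a 4.87-fold gap within Ets1-/-. The SD between replicates on the log2(FPKM + 1) scale, pooled over the genotypes, was 1.42 for Pmaip1 and had a median of 0.16 over all genes tested, and 98.7% of the genes tested had a smaller one. The log2 fold change of 0.10 (SE 0.90) has a 95% confidence interval from -2.19 to 2.39, so these libraries do not settle even a 4-fold difference in Pmaip1.

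Bbc3, at chr7:16894965-16903554 in mm9 (plus strand), was at 2.70 and 3.40 FPKM in WT and at 4.91 and 2.69 FPKM in Ets1-/- cells. Its higher libraries were again WT replicate 2 and Ets1-/- replicate 1, with gaps of 1.26-fold and 1.82-fold, and its log2 fold change was 0.21 (SE 0.27, 95% confidence interval from -0.47 to 0.89). The high libraries are also the more deeply sequenced ones, with a relative depth of 1.75 and 1.67 against 1.00 and 0.876, and the part of depth in these values was not tested.

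The profile of Pmaip1 over the 4 libraries was set beside those of all other genes tested, as the distance between log2(FPKM + 1) values centred on each gene's mean. This search was added after the split of Pmaip1 had been seen, and was limited to genes with at least 200 exon bases because most genes with a wider replicate spread than Pmaip1 were shorter or had no length. The nearest 6 genes were Dnajb4, Hsph1, Gla, Gm13363, Rps27 and Dnaja1, at distances of 0.59 to 0.91, and Dnajb4, Hsph1 and Dnaja1 encode chaperones of the heat shock response. Dnajb4 was at 8.47 and 22.7 FPKM in WT and at 48.3 and 9.12 FPKM in Ets1-/- cells, and Hsph1 at 21.7 and 52.6 FPKM and at 74.2 and 24.03 FPKM. The inducible Hsp70 genes had the same order within each genotype with smaller gaps, Hspa1a at 238 and 281 FPKM in WT and at 215 and 139 FPKM in Ets1-/- cells and Hspa1b at 496 and 520 FPKM and at 344 and 250.5 FPKM, and both were lower in both Ets1-/- libraries, unlike Pmaip1.

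Few genes were split as widely. Of 10082 tested genes with at least 200 exon bases, 10 were at least 3-fold higher both in WT replicate 2 than in WT replicate 1 and in Ets1-/- replicate 1 than in Ets1-/- replicate 2, 4 were at least 3-fold lower in both, and 1 was split at least 3-fold in another way. Beside Pmaip1 the 10 included the ribosomal protein gene Rps27, at 45.2 and 363 FPKM in WT and at 386 and 78.5 FPKM in Ets1-/- cells. Atf3, a stress-induced transcription factor, was at 1.03 and 3.91 FPKM in WT and at 37.3 and 3.54 FPKM in Ets1-/- cells. Nr4a2, an immediate early gene, was at 0.200 and 0.607 FPKM and at 2.69 and 0.684 FPKM. These genes were picked from the 10 after their values were seen, and the rest are not described. Whether the 10 share a function was not tested. Of 2 other p53 targets, Mdm2 was at 28.3 and 31.4 FPKM in WT and at 34.6 and 18.1 FPKM in Ets1-/- cells, and Cdkn1a at 1.15 and 0.941 FPKM and at 0.858 and 0.720 FPKM.

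**Figure D3:**
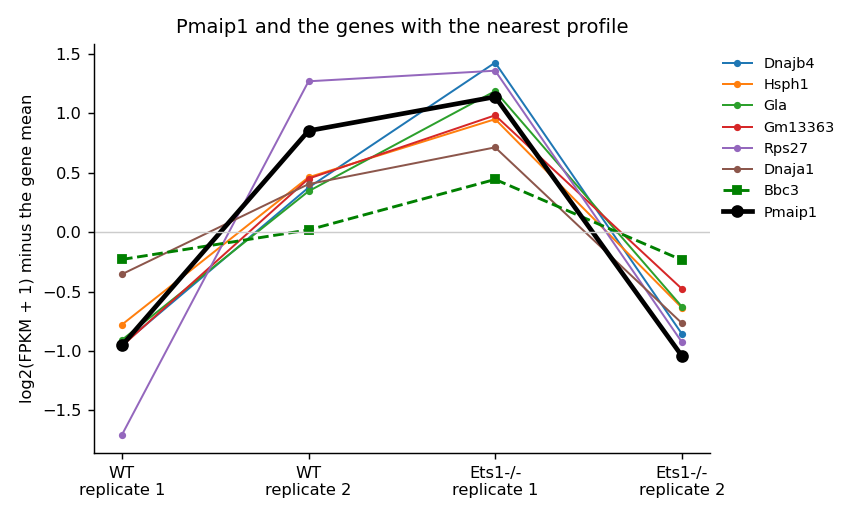
Profile of Pmaip1 (black), Bbc3 (green, dashed) and the 6 genes nearest to Pmaip1 over the 4 libraries, as log2(FPKM + 1) minus the mean of the gene, where lines only join the values of 1 gene. Pmaip1 and the 6 genes are high in WT replicate 2 and Ets1-/- replicate 1 and low in the other libraries.

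By the same distance, and among all genes tested, the nearest to the member with the largest fold change of each role were Zeb2 and Sbf2 for Bcl2 (0.033 and 0.036), Apmap and Gpkow for Bak1 (0.0054 and 0.018), and Ercc6l2 and Vps13a for Bbc3 (0.040 and 0.056). Zeb2 was at 4.36 and 4.23 FPKM in WT and at 7.57 and 5.98 FPKM in Ets1-/- cells. With 4 libraries such a likeness describes the values only.

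Ratios within a library are not changed by a single scaling factor for that library, and they were compared as a description. The ratio of Bcl2 to Bcl2l11 was 2.995 and 2.93 in WT and 5.37 and 4.51 in Ets1-/- cells, without overlap, with means of 2.96 ± 0.0431 and 4.94 ± 0.602 (SD, n = 2 each). Bcl2 was above and Bcl2l11 below without overlap, so their ratio could not overlap and adds no separate result. The share of other gene pairs with ratios that do not overlap was not worked out. The ratio of Bcl2 to Bax was 0.320 and 0.270 in WT and 0.508 and 0.349 in Ets1-/- cells, also without overlap. Without Ets1-/- replicate 1 the log2 difference of the ratio of Bcl2 to Bax went from 0.52 to 0.25, and that of Bcl2 to Bcl2l11 from 0.73 to 0.61.

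The ratio of Mcl1 to Pmaip1 was 21.0 and 6.30 in WT and 5.03 and 24.4 in Ets1-/- cells, which follows the split of Pmaip1. Pmaip1 held 16.4% and 39.9% of the summed FPKM of the 5 BH3-only members in WT and 47.7% and 16.0% in Ets1-/- cells. The 3 pro-survival members summed to 3.91 and 2.81 times the 5 BH3-only members in WT and to 2.85 and 4.53 times in Ets1-/- cells, with overlap, and the log2 difference of 0.12 became -0.012 with quantile normalization. Without Pmaip1, a choice made after seeing the data, this ratio was 4.67 and 4.68 in WT and 5.45 and 5.40 in Ets1-/- cells, without overlap.

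**Figure D4:**
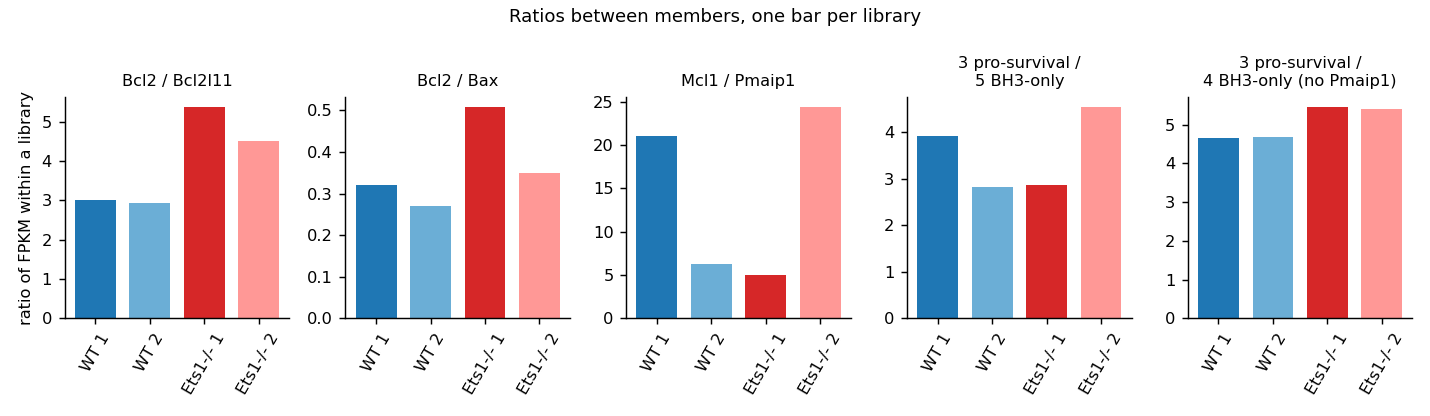
Ratios of FPKM between members within a library, 1 bar per library, with axes from 0. The ratio of Bcl2 to Bcl2l11 is 2.93 to 2.995 in the WT libraries and 4.51 to 5.37 in the Ets1-/- libraries, while the ratio of Mcl1 to Pmaip1 is split within both genotypes.

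Of the 16 further genes of the family on the list, 15 were above 0 in some library, 9 were tested, and none, 0 of 9, passed the thresholds. Their median log2 fold change was -0.29, where that of all genes tested was -0.02, and in 6 of the 9, against 22.2% of all genes, both Ets1-/- values were below both WT values. At an unadjusted p under 0.05 there were 2 of 9, Bcl2l2 and Bcl2l12, both lower, where 761 of the 10949 genes were lower and 13.3% differed in either direction. Bcl2l2, the gene of the pro-survival protein Bcl-w, at chr14:55502214-55507071 in mm9, was at 5.27 and 5.25 FPKM in WT and at 2.30 and 3.09 FPKM in Ets1-/- cells. Its log2 fold change of -0.77 (SE 0.17, 95% confidence interval from -1.20 to -0.33) had a Benjamini-Hochberg adjusted p of 0.123 in limma, and the ratio of its mean FPKM was 0.512. Bcl2l2 overlaps the model Gm20521 on its own strand.

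Bcl2l12, which encodes a protein with a BCL2-like region, at chr7:52246592-52254082 in mm9, was at 28.1 and 26.4 FPKM in WT and at 14.5 and 18.8 FPKM in Ets1-/- cells. Its log2 fold change of -0.69 (SE 0.17) had a Benjamini-Hochberg adjusted p of 0.156 in limma. On the opposite strand it shares up to 467 exon bases with Gm15545, which was at 6.25 and 5.68 FPKM in WT and at 4.45 and 5.82 FPKM in Ets1-/- cells, and up to 88 with Irf3, which was at 78.4 and 70.0 FPKM in WT and at 61.0 and 81.3 FPKM in Ets1-/- cells, which overlap. Bmf, a BH3-only gene, was at 12.7 and 9.73 FPKM in WT and at 6.77 and 9.55 FPKM in Ets1-/- cells. Bnip3l, which acts in the removal of mitochondria, was at 36.1 and 36.6 FPKM in WT and at 31.3 and 28.0 FPKM in Ets1-/- cells.

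Bcl2a1b, of the pro-survival A1 genes that rise with NF-kB activity, was at 27.6 and 37.1 FPKM in WT and at 25.0 and 24.5 FPKM in Ets1-/- cells, with a log2 fold change of -0.36 (SE 0.18). The A1 genes are nearly identical copies, and Bcl2a1b also shares exon bases with Mthfs on its own strand, so the division of reads between them is uncertain. Bcl2a1d was at 3.73 and 5.47 FPKM in WT and at 5.37 and 6.16 FPKM in Ets1-/- cells. The BH3-only gene Bik was under the filter, at 0.191 and 0.181 FPKM in WT and at 0.495 and 0.508 FPKM in Ets1-/- cells, and was not tested. Bcl2l14, also untested, was at 0.373 and 0.345 FPKM in WT and at 0.907 and 1.06 FPKM in Ets1-/- cells. Hrk, also untested, was near 0 in every library, at 0.00909 and 0.0104 FPKM in WT and at 0.0164 and 0.0208 FPKM in Ets1-/- cells. No direction is given for values this low. The other untested genes of the family overlapped or were at 0.

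The 19 caspases and regulators described here, which act with or after the mitochondrial step, were all tested, and 0 of 19 passed the thresholds. The list was shortened by 1 gene after values had been seen, so its counts describe the 19 genes shown and no more. At an unadjusted p under 0.05, 1 was lower and 0 higher, where 761 of the 10949 genes were lower and 700 higher, and their median log2 fold change was -0.05. Casp8, the initiator that cuts Bid, was at 48.5 and 46.2 FPKM in WT and at 37.2 and 29.3 FPKM in Ets1-/- cells, with a log2 fold change of -0.51 (SE 0.17) and a Benjamini-Hochberg adjusted p of 0.271 in limma. Both Ets1-/- values of Casp8 were below the WT values. Htra2, a mitochondrial protease that can block inhibitors of caspases, was at 32.8 and 31.2 FPKM in WT and at 23.0 and 30.2 FPKM in Ets1-/- cells, without overlap, with a log2 fold change of -0.27 (SE 0.18). Exons of Htra2 are shared with Aup1 and Loxl3 on the opposite strand. Birc3, which encodes cIAP2, was the most abundant at 124 and 112 FPKM in WT and 109 and 109 FPKM in Ets1-/- cells. The caspase inhibitor gene Xiap, at 11.9 and 15.0 FPKM in WT and at 14.3 and 6.62 FPKM in Ets1-/- cells, and Dffa, which restrains the nuclease of apoptosis, at 23.5 and 22.4 FPKM and at 23.3 and 33.4 FPKM, overlapped between the genotypes.

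Of 15 genes that act on the family from upstream, 14 were tested, and 0 of 14 passed the thresholds. At an unadjusted p under 0.05, 1 was higher and 1 lower, close to the 13.3% of all genes in either direction, and their median log2 fold change was -0.11. E2f1, a cell cycle factor that can also raise BH3-only genes, was at 3.68 and 4.57 FPKM in WT and at 6.95 and 7.79 FPKM in Ets1-/- cells, without overlap, with a log2 fold change of 0.71 (SE 0.16). In limma the Benjamini-Hochberg adjusted p of E2f1 was 0.134. Foxo1, a quiescence factor of B cells whose family can drive Bcl2l11, was at 51.9 and 51.0 FPKM in WT and at 33.6 and 37.6 FPKM in Ets1-/- cells, without overlap, with a log2 fold change of -0.52 (SE 0.14) and a Benjamini-Hochberg adjusted p of 0.180 in limma. Trp53, the gene of p53, was at 82.0 and 78.4 FPKM in WT and at 69.2 and 79.0 FPKM in Ets1-/- cells, with overlap. Ddit3, a factor of endoplasmic reticulum stress, was at 37.9 and 49.4 FPKM in WT and at 77.1 and 43.5 FPKM in Ets1-/- cells, also with overlap. Pim1, a survival kinase, was at 49.4 and 61.4 FPKM in WT and at 38.0 and 44.9 FPKM in Ets1-/- cells. Ywhaz, whose 14-3-3 protein holds phosphorylated Bad, was at 153 and 175 FPKM in WT and at 225 and 187 FPKM in Ets1-/- cells.

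**Figure D5:**
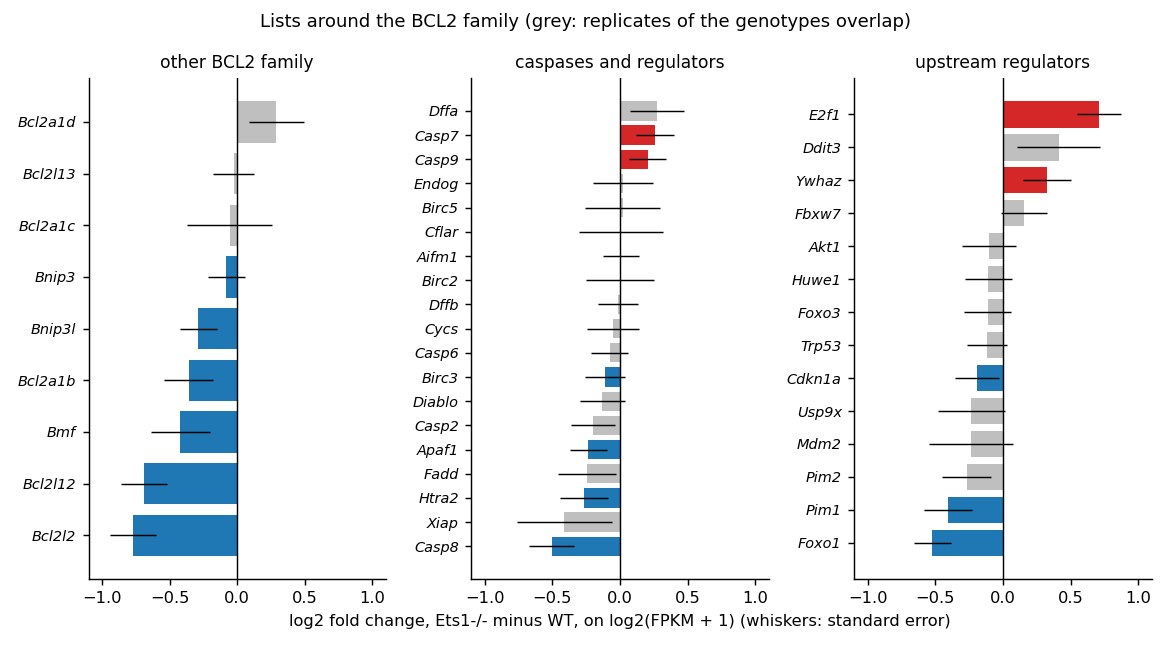
Log2 fold change, Ets1-/- minus WT on the log2(FPKM + 1) scale, with its standard error, for the tested genes of 3 lists around the 10 members. Red and blue bars mark genes whose 2 Ets1-/- values lie above or below both WT values, grey bars genes with overlap, and no gene reaches a log2 fold change of 1 in either direction.

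Since Ets1 is the factor removed, promoter windows of the members were searched for its core letters. RefSeq windows of GRCm38.p6, from 250 bases before to 50 bases after a start, were at hand for 9 members (15 windows, some overlapping), and not for Pmaip1. The letters CCGGAA, on either strand, were in 5 of these 15 windows, from 5 genes, and in 14.9% of all 32817 windows. The longer CCGGAAGT, which contains them, was in 1, a window of Bcl2l1, and in 3.89% of all. The single window of Bcl2 held neither. Other forms of an Ets1 site were not searched, so a window without a match may still hold one. A match describes letters and shows no binding, and no match says nothing of the factor elsewhere at the gene. The matches are printed with 30 bases each, 5′ to 3′ along the strand of the gene, with CCGGAA or its reverse complement in capitals, to show what surrounds them at Bcl2l11 (chr2:128125922-128125951, plus strand), Bcl2l1 (chr2:152831679-152831708, minus strand), Mcl1 (chr3:95658646-95658675 and chr3:95658679-95658708, plus strand), Bid (chr6:120916952-120916981, minus strand) and Bad (chr19:6942375-6942404, plus strand).
Bcl2l11: gtggggcttaccTTCCGGcttgccgggggc
Bcl2l1: gcgctgccgcggcaCCGGAAgtggctgcgc
Mcl1, first: agagcgctccggCCGGAAgaggcgcggagt
Mcl1, second: cgggccagccctCCGGAAacgcccgcccct
Bid: ggggagcgcaggTTCCGGgtgtaccttcct
Bad: ggaagtccgatcCCGGAAtccggagcctgg
Of the 3 members without overlap between the genotypes, Bcl2l11 and Bid, both lower in Ets1-/- cells, had a match and Bcl2 had none, and of the 6 others with a window Mcl1, Bcl2l1 and Bad had a match and Bax, Bak1 and Bbc3 had none. The members differ in their number of windows, and the share of all genes with a match was not worked out. A link between a match and the direction of change was not tested.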

How the data were processed

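Per the labels, the authors aligned reads to mm9 with TopHat2 2.0.13 and estimated expression with Cuffdiff. They deposited 1 table of FPKM values per library, and Cuffdiff's version, the gene annotation, strand handling and scaling between libraries were not given in the sources used here. Reads were not realigned. Of 23309 entries per table, 4 with repeated symbols were left out. Positions and exon lengths came from GENCODE M1 (mm9), which matched 21162 of 23305 symbols. The genotypes were compared with limma 3.58.1 in R 4.3.3 (lmFit, eBayes with trend, 2 residual and 3.1 prior degrees of freedom) on log2(FPKM + 1), for genes with a mean of at least 1 FPKM in either genotype, with Benjamini-Hochberg adjustment over all genes tested. The fit was checked on simulated data with known changes, but this check set no required recovery at a 2-fold change. Of 512 tested genes with a log2 fold change of 1 or more in either direction, 186 were called. Adding 1 to the FPKM understates changes of low genes. The 2 samples per genotype are called biological replicates in the methods, and 2 against 2 cannot reach p = 0.05 by permutation.

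The members and gene lists were chosen with earlier results of these data known. A gene of the caspase list was taken out after its values were seen, for a reason other than its values, and is not reported here. Named were all members and, of each further list, called genes, the 4 with the largest change and the 2 with the highest level among those tested, and the 2 nearest profiles per role. Genes named outside this rule (Bcl2l13, Bcl2a1d, Bik, Bcl2l14, Hrk, Mdm2, Cdkn1a, Atf3, Nr4a2, Hspa1a, Hspa1b, cell type markers, overlapping neighbours) were chosen after their values were seen. Alternatives covered the pseudocount, the filter, scaling, the variance model, the call rule, the replicate block and each replicate left out. Other tables were drawn up with Python 3.11.15, numpy 2.4.6 and pandas 2.3.3.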

Additional observations from a re-analysis of the deposited data

How the results depend on the processing

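The count of members called was 0 under all 14 alternatives, and so were the counts of the other BCL2 family genes, the caspases and regulators, and the upstream genes. Of 130 values (10 members under 13 alternatives each) 120 kept their direction and 10 changed sign. The filters, the variance models and the replicate blocks cannot move the fold change of a member. Many of the 120 were therefore fixed in advance and do not measure stability. The same holds for the counts of 0. No tested gene of these lists reached a log2 fold change of 1 in the main fit. Alternatives that leave the fold change as it is could not call any of them. With quantile normalization the log2 fold change was -0.085 for Mcl1 and -0.025 for Bax. Leaving out 1 replicate at a time moved it between -0.037 and 0.12 for Mcl1, -0.093 and 0.12 for Bax, -0.16 and 0.018 for Bak1, -0.078 and 0.34 for Bcl2l1, -0.13 and 0.55 for Bbc3 and -0.99 and 1.19 for Pmaip1, so no direction is given for these 6. Bcl2 ranged from 0.36 to 0.68, with an adjusted p between 0.0821 and 1 over all its alternatives, Bcl2l11 from -0.21 to -0.15, Bid from -0.26 to -0.15 and Bad from 0.0097 to 0.34.

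The background count of 186 changed genes (96 higher, 90 lower) was 75 (37 and 38) with no filter on low values, where 17315 genes were tested, and 305 (165 and 140) with robust eBayes. With a mean of at least 1 FPKM asked of both genotypes, 63 were higher. With the replicate block 154 were higher, of 266. The replicates share numbers but nothing in the sources pairs them. Deviations of same-numbered replicates from their genotype means had a weak negative correlation across genes (-0.207). With crossed pairs, chosen after seeing the data, 409 were called (244 and 165). Each replicate left out in turn gave 99 to 116 called, 41 to 84 higher and 32 to 59 lower, and the share of higher calls was 72.4% without Ets1-/- replicate 2 and 41.4% without WT replicate 1, against 51.6%. The cause of these shifts was not tested. With 2 libraries per genotype, no member but Pmaip1 has an interval that reaches a 2-fold change on the log2(FPKM + 1) scale, and that of Pmaip1 spans 4-fold in both directions.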
